A study of Mus musculus with 4 samples.

Results

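In bone digests from 4 mice, 649 of 31279 kept cell barcodes formed a small population marked by Myoc, Apod and Thbs4, transcripts of secreted proteins. A barcode was counted in when the 3 genes together had at least 5 UMIs (unique molecular identifiers, 1 for each captured transcript molecule) and at least 0.1% of its UMIs. It also had to hold under 0.1% each of a first set of cartilage transcripts (Acan, Cytl1, Col10a1), another set of cartilage transcripts (Col9a1, Col9a2, Matn3, Col11a2) and osteoblast transcripts (Bglap, Bglap2, Sp7), and under 3% of S100a8 plus S100a9, which mark neutrophils. The rule therefore used measured values, and the levels of these genes in the population are given as description without a test. Of 1073 barcodes that passed the first condition, 424 failed at least 1 exclusion, 366 of them the limit on Acan, Cytl1 and Col10a1. At the edge of the rule, 30 members held exactly 5 UMIs of the 3 genes, of which 8 had a Pdgfra UMI. Another 21 barcodes with 4 UMIs lay just outside, of which 8 had a Pdgfra UMI, and 213 had 5 or more UMIs but under 0.1% of their total.

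Connective tissue fibroblasts build and maintain the collagen-rich matrix of tendon, ligament, fascia, periosteum and joint capsule. They secrete collagens, small leucine-rich proteoglycans that shape collagen fibrils, and matricellular proteins that tie cells to the matrix. Myoc encodes myocilin, a secreted glycoprotein known from the trabecular meshwork of the eye, Apod encodes apolipoprotein D, a lipid-binding carrier, and Thbs4 encodes thrombospondin 4, a matricellular protein abundant in tendon.

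The samples were bone from 2 wild-type Ctrl mice and 2 wild-type HLU mice. HLU stands for hindlimb unloading by tail suspension, which lasted 28 days and takes body weight off the hind legs. The paper's methods give 8 weeks as the age of the mice that were then suspended for 28 days. The series text names postnatal day 28 instead, so the age at sampling is uncertain. Tibiae and femurs were flushed to remove marrow and digested with enzymes, and the labels name no tissue other than bone. Single cells were then captured with a 10x Genomics 3′ kit. Where values of all 4 libraries stand together, both Ctrl replicates come first and both HLU replicates follow, and this is called library order. In library order the libraries held 57925383, 61296053, 47819046 and 99849070 UMIs in 10000, 10000, 10000 and 10003 deposited barcodes. After filtering, 7311, 7495, 7571 and 8902 barcodes were kept, with medians of 6307, 5936, 3875 and 6471.5 UMIs.

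The population was found mostly in the Ctrl libraries: 635 members came from Ctrl mice and 14 from HLU mice. Ctrl replicate 1 gave 472 members, Ctrl replicate 2 gave 163, HLU replicate 2 gave 12 and HLU replicate 1 gave 2. Their summed counts were 3058272, 1696095, 157543 and 40193 UMIs in the same order, so that 1 UMI stood for 0.327, 0.590, 6.35 and 24.9 CPM (counts per 1000000 UMIs of the summed cells). A gene without a UMI may thus still lie below 0.981, 1.77, 19.0 and 74.6 CPM, the value of 3 counts. In HLU replicate 2 the 3 deepest cells carried 65% of all member UMIs, and 2 of the 12 cells were scored as doublets, against 14 of 472 and 4 of 163 in the Ctrl libraries. All HLU values below therefore describe a handful of cells. Between 13 and 21 barcode sequences were shared by each pair of libraries among kept barcodes, and no barcode was a member in more than 1 library.

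As a share of kept barcodes, the members made up 6.46% of Ctrl replicate 1 (95% exact binomial interval 5.90% to 7.04%) and 2.17% of Ctrl replicate 2 (1.86% to 2.53%). They made up 0.135% of HLU replicate 2 (0.0697% to 0.235%) and 0.0264% of HLU replicate 1 (0.00320% to 0.0954%). These intervals cover counting error only. Group means were 4.32% ± 3.03 (SD, n = 2) in Ctrl and 0.0806% ± 0.0766 (SD, n = 2) in HLU, a 53.5-fold ratio. The ratio was 27.0-fold without Ctrl replicate 1, 80.1-fold without Ctrl replicate 2, 32-fold without HLU replicate 1 and 163-fold without HLU replicate 2. Both HLU libraries lay below both Ctrl libraries, and the difference of -4.23 percentage points gave a two-sided exact permutation p of 0.33, the smallest that 2 against 2 libraries allow.

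Within the skeletal and connective barcodes alone, the groups overlapped. This denominator joined the members with osteoblast-like cells, chondrocyte-like cells and other Pdgfra positive cells. The members were 472 of 3140 such barcodes (15.0%, 13.8% to 16.3%) in Ctrl replicate 1, 163 of 2363 (6.90%, 5.91% to 8.0%) in Ctrl replicate 2, 12 of 112 (10.7%, 5.66% to 18.0%) in HLU replicate 2 and 2 of 47 (4.26%, 0.520% to 14.5%) in HLU replicate 1. The HLU value of replicate 2 stood between the Ctrl libraries, and the mean difference was -3.48 points (two-sided exact permutation p = 0.667). The lower share among all barcodes thus moved together with the number of all skeletal barcodes, which was 47 and 112 in HLU against 3140 and 2363 in Ctrl. Whether unloading or the recovery of these cells from the bone set that number cannot be told apart here.

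**Figure D1:**
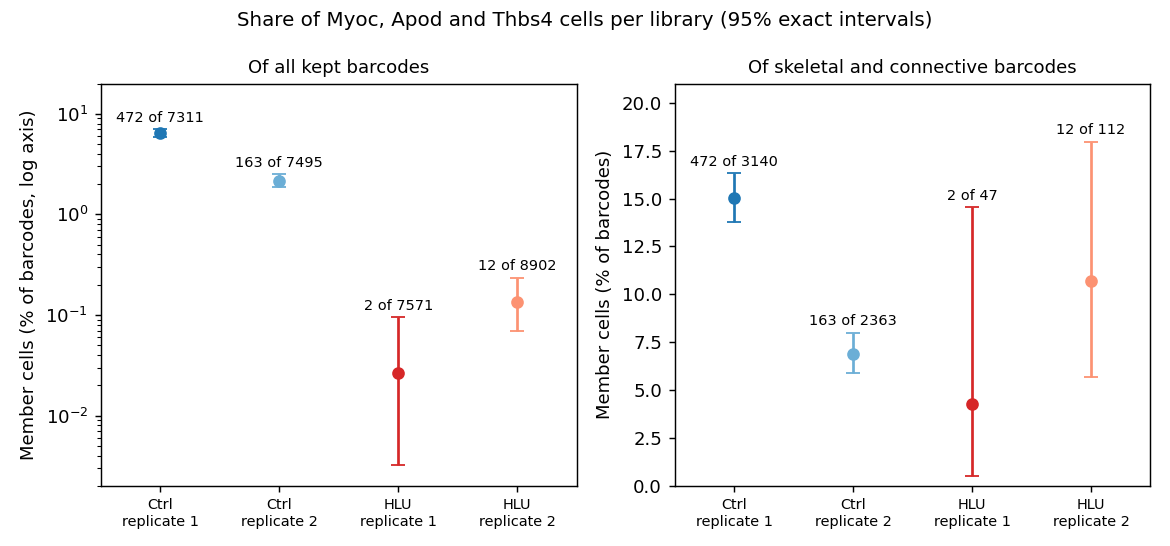
Percentage of barcodes counted as Myoc, Apod and Thbs4 cells in each library, of all kept barcodes (left, log axis) and of skeletal and connective barcodes (right, linear axis). Points are single libraries and bars are 95% exact binomial intervals. On the left both HLU points (0.135% and 0.0264%) lie under both Ctrl points (6.46% and 2.17%), whereas on the right HLU replicate 2 (10.7%) lies between the Ctrl libraries (15.0% and 6.90%).

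Myoc lies on mm10 at chr1:162639155-162649693 (plus strand), Apod at chr16:31296192-31314808 (minus strand) and Thbs4 at chr13:92751590-92794818 (minus strand). All 3 are protein-coding genes. Levels are CPM of counts summed over the cells of a library, and because the 3′ kit counts molecules they are not divided by transcript length. In members, Myoc reached 1802, 289, 0 and 184 CPM in library order. Apod stood at 995, 533, 5797 and 1041 CPM in library order. Thbs4 stood at 1655, 1908, 0 and 1904 CPM. The Thbs4 values of the 3 libraries with more than 2 members were close, but the rule chose cells by this gene, so this is no result. In HLU replicate 2, 103 of its 300 Thbs4 UMIs came from 1 cell scored as a doublet and 65 from another cell. Of the 3 genes, Myoc differed most between the Ctrl mice.

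Levels of the 3 genes in other cells are given as description, since the rule set the members' level. The 3 genes together reached 4451, 2730, 5797 and 3129 CPM in members, in library order. In other Pdgfra positive cells, which passed the same exclusions and had at least 2 UMIs of this fibroblast receptor gene, they reached 151, 174, 90.8 and 118 CPM. Chondrocyte-like cells held 343, 330, 212 and 91.9 CPM. Osteoblast-like cells held 873 and 671 CPM in Ctrl, nearly all of it Thbs4 (773 and 589 CPM). Neutrophil-rich barcodes, which should lack the 3 genes and give the background level of the droplets, held 76.6 and 44.3 CPM in Ctrl but 2.39 and 1.24 CPM in HLU, at medians of 3779, 3530, 3757.5 and 6227 UMIs.

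The 3 genes did not mark the same cells equally. Of the 472 members of Ctrl replicate 1, 133 had UMIs of only 1 of the genes, 215 of 2 and 124 of all 3. In Ctrl replicate 2, whose members were deeper (median of 9417 against 5021 UMIs), 83 of 163 had only 1 of the genes, 63 had 2 and 17 had all 3. Thbs4 was found in 80.3% and 78.5% of members in the Ctrl libraries, Apod in 59.5% and 47.2%, and Myoc in 58.3% and 33.7%. The gene with the most UMIs in a cell was Thbs4 in 202, Myoc in 161 and Apod in 102 members of Ctrl replicate 1, with 7 ties. In Ctrl replicate 2 it was Thbs4 in 99, Apod in 41 and Myoc in 22, with 1 tie. Cells led by Myoc therefore made up 34.1% of members in the first Ctrl mouse and 13.5% in the second. In HLU replicate 2, 6 cells were led by Thbs4, 5 by Apod and 1 by Myoc, and both cells of HLU replicate 1 were led by Apod.

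**Figure D2:**
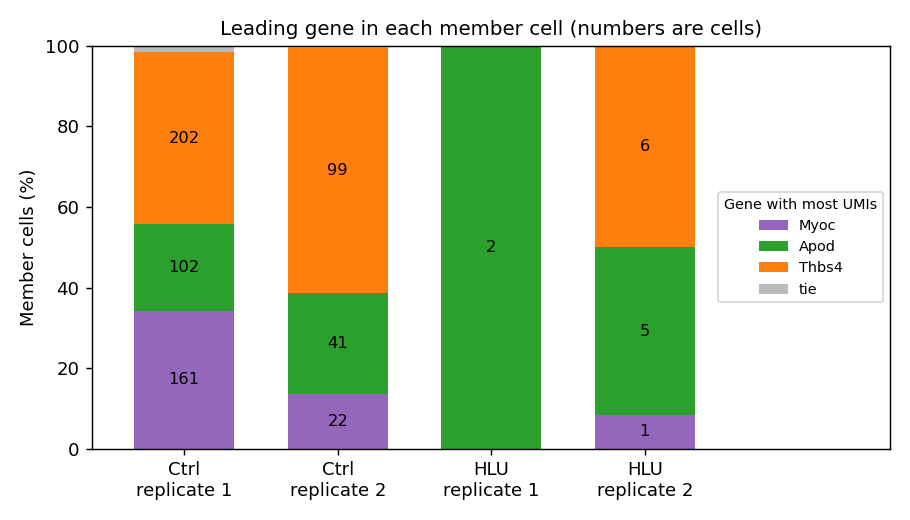
Percentage of member cells in which Myoc, Apod or Thbs4 had the most UMIs, for each library; numbers in the bars are cells. Thbs4 led in 42.8% and 60.7% of members of the Ctrl libraries, and Myoc in 34.1% and 13.5%.

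Ogn, Serpinf1 and Hspb1 were named as further markers. Ogn (chr13:49608046-49624501, plus strand) encodes osteoglycin, a small leucine-rich proteoglycan. Members held 252 and 108 CPM in Ctrl and 171 CPM in the second HLU library, with no UMI in the 2 cells of the first. Other Pdgfra positive cells of the Ctrl libraries had 28.0 and 25.8 CPM, and neutrophil-rich barcodes 4.62 and 2.11. Serpinf1 (chr11:75409769-75422701, minus strand) encodes pigment epithelium-derived factor, an inhibitor of vessel growth that also takes part in bone mineralisation. Its level in members was 1063, 725, 0 and 241 CPM in library order. Osteoblast-like cells (391 and 441 CPM) and other Pdgfra positive cells (438 and 462 CPM) of the Ctrl libraries also carried it. Ogn was found in 43.6% and 34.4% of Ctrl members and Serpinf1 in 76.7% and 71.8%.

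Hspb1 (chr5:135887919-135889563, plus strand) encodes the small heat shock protein Hsp25, which is induced by heat and proteotoxic stress and guards unfolded proteins and the actin skeleton. It stood apart from the other markers because the difference between the Ctrl libraries recurred in every population compared. Members had 7247, 2880, 224 and 209 CPM in library order. Ctrl replicate 1 exceeded Ctrl replicate 2 by 2.52-fold in members, 3.35-fold in other Pdgfra positive cells, 2.66-fold in chondrocyte-like cells, 3.70-fold in osteoblast-like cells and 3.06-fold in neutrophil-rich barcodes. The Ctrl levels were 5583 and 1509 CPM in osteoblast-like cells, 3305 and 1244 in chondrocyte-like cells and 494 and 162 in neutrophil-rich barcodes. Hspb1 was thus highest in members within each Ctrl library but was shared with all skeletal cells.

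The inducible chaperone genes Hspa1a and Hspa1b, which encode near-identical HSP70 proteins and can share reads, were likewise higher in Ctrl replicate 1 than in Ctrl replicate 2. Hspa1a stood at 8302, 2597, 0 and 25.4 CPM in members, in library order. In neutrophil-rich barcodes it stood at 1381 CPM in Ctrl replicate 1 and 298 CPM in Ctrl replicate 2, a 4.63-fold ratio. Cryab, a small heat shock protein gene known from lens and muscle, was at 3078, 2331, 24.9 and 82.5 CPM in members. Of 16 detected genes in the lists of small heat shock proteins and chaperones, 15 were higher in Ctrl replicate 1 than in Ctrl replicate 2 in members, against 49.7% of all 9902 genes tested there. The count was 15 of 16 in neutrophil-rich barcodes and in osteoblast-like cells, 15 of 17 in chondrocyte-like cells and 13 of 17 in other Pdgfra positive cells, where Cryab stood at 680 and 839 CPM.

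The promoters of Hspb1 and Hspa1a are shown because both genes are known targets of heat shock factor, which binds inverted repeats of the unit GAA. The 250 bases before the transcription start come from RefSeq on GRCm38.p6 and stand on the gene's strand, Hspb1 at chr5:135887669-135887918 (plus strand) and Hspa1a at chr17:34972157-34972406 (minus strand). Capitals mark matches to GAANNTTC or TTCNNGAA, 2 motifs that each equal their own reverse complement, so that 1 search covers both strands.
Hspb1: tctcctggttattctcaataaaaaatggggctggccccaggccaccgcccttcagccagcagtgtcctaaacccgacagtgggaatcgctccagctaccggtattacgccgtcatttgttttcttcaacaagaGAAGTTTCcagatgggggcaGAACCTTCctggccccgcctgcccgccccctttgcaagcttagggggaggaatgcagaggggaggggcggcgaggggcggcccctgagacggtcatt
Hspa1a: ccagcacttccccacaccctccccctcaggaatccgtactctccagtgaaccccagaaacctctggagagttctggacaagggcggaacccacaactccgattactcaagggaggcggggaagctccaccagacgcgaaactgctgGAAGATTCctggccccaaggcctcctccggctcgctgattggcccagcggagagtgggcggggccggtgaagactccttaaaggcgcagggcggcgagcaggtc
Hspb1 held 2 matches, starting 117 and 97 bases before the start, and Hspa1a held 1, at 104 bases. Of the 17 genes in the 2 heat shock lists 12 had a RefSeq promoter. Of their 18 promoters 10 held a match, against 12.8% of all 32851 promoters searched over the same length. The 18 are not separate sequences, since the 2 of Hsph1 overlap and Hspd1 and Hspe1 share matched bases. Counted by gene, 9 of the 12 held a match. A match is a description of the sequence and not a binding site.

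Beyond the genes of the rule, 25 genes had the highest ratios of members to all other kept cells in the Ctrl libraries, among 1148 genes of at least 100 CPM in members of both. Since the cells were chosen by measured values, these ratios are descriptive. Matrix and matrix-shaping genes made up a first group: Aspn (asporin, 13.3-fold), Ogn (10.6-fold), Col3a1 (7.07-fold), Thbs2 (5.34-fold) and Mmp2, a gelatinase gene (7.73-fold). Another group held inhibitors and carriers secreted into plasma or matrix: Serpinf1 (11.3-fold), Serping1 (the C1 inhibitor, 7.76-fold), Clec3b (tetranectin, 13.2-fold), Selenop (the plasma selenium carrier, 6.82-fold) and Rnase4 (6.67-fold). The next held genes of inflammation, among them chemokines and a receptor: Ptx3 (pentraxin 3, 13.0-fold), Ccl2 (7.69-fold), Ccl7 (7.65-fold), Cxcl12 (5.86-fold) and Il1rl1 (the interleukin-33 receptor, 5.23-fold). Growth and signalling genes were Fgf7 (7.14-fold), Angptl7 (7.25-fold), Igfbp4 (6.07-fold), Dio2 (the deiodinase that activates thyroid hormone, 8.25-fold), Gem (6.20-fold), Gpm6b (5.87-fold) and Ccdc3 (6.35-fold). Prrx1, a transcription factor gene of limb mesenchyme, was 5.64-fold and the water channel gene Aqp1 5.44-fold higher. The Ptx3 ratio rested largely on Ctrl replicate 2. Members of the Ctrl libraries held 180 and 884 CPM, against 37.6 and 42.7 CPM in other kept cells. Col3a1 (518 and 1453 CPM) and Dio2 (179 and 374 CPM) also stood higher in members of Ctrl replicate 2.

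Aspn, which encodes a small leucine-rich proteoglycan of periosteum and ligament, stood at 180, 117, 0 and 127 CPM in library order. Clec3b stood at 130, 155, 0 and 6.35 CPM, the last being 1 UMI. All 25 genes were higher in members than in chondrocyte-like cells, osteoblast-like cells and neutrophil-rich barcodes in both Ctrl libraries. Against other Pdgfra positive cells, 18 of 25 were higher in members in both and 3 were lower in both. Il1rl1 was 1 of the 3, with 368 and 453 CPM in members and 549 and 698 CPM in other Pdgfra positive cells. Pdgfra itself was found in 40.9% and 61.3% of Ctrl members, against 3.35% and 3.84% of neutrophil-rich barcodes. In the 12 cells of HLU replicate 2 all 25 genes stood above the other cells of that library, whereas the 2 cells of HLU replicate 1 had no UMI for 19 of the 25.

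**Figure D3:**
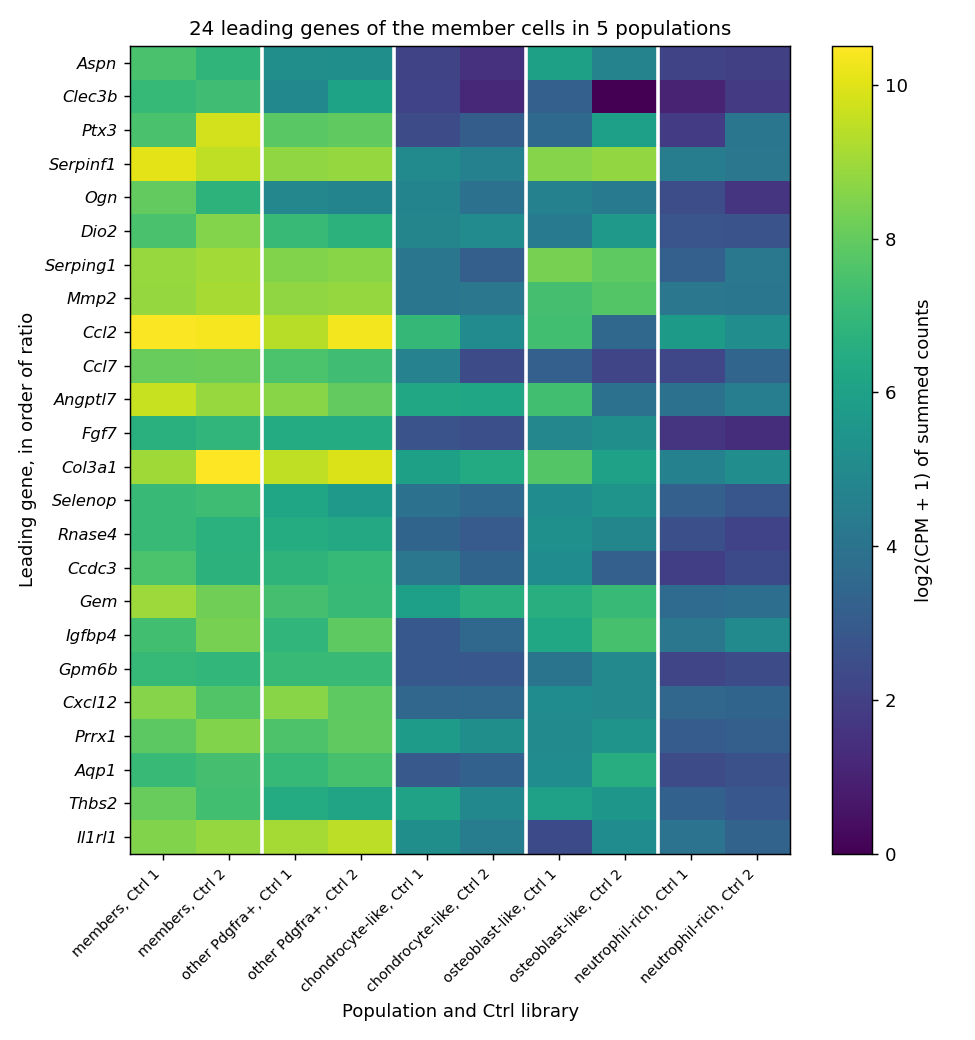
Levels of 24 of the 25 leading genes (rows, in order of their ratio) in members and 4 other populations of each Ctrl library (columns), as log2(CPM + 1) of summed counts. Of all 25 genes, 18 are higher in members in both Ctrl libraries than in other Pdgfra positive cells, and all 25 are higher than in the 3 remaining populations.

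The name connective tissue cells was checked against marker lists. Of the general fibroblast genes, Dcn (decorin) reached 23250 and 21139 CPM in Ctrl members and was found in every Ctrl member, Col1a1 reached 733 and 1463 CPM, Col1a2 887 and 1582, Lum (lumican) 885 and 1520, Pdgfra 225 and 238 and Pdgfrb 45.1 and 44.2. Decorin RNA was also at 31362 and 31009 CPM in chondrocyte-like cells, and at 2135 and 2156 CPM in neutrophil-rich barcodes. Tendon genes were mixed. Fmod (fibromodulin, 830 and 1206 CPM) and Comp (5837 and 4783 CPM) were abundant, Tnmd (tenomodulin, a tendon differentiation gene) was at 81.1 and 46.6 CPM against 2.65 and 7.60 CPM in other Pdgfra positive cells, and the tendon transcription factor genes Scx and Mkx were low, at 16.3 and 7.08 and at 14.1 and 4.72 CPM. Scx was found in 37 of 472 and 10 of 163 members and in none of the HLU members. Tnmd was found in 17.2% and 11% of Ctrl members, so that most members had no UMI of either gene.

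Other connective tissue types were matched in part. The adventitial genes Pi16, Dpp4 and Cd248 lay at 6.21 and 0.590, 1.31 and 0.590, and 0.654 and 0.590 CPM in Ctrl members, although Clec3b, Gsn (3603 and 2709 CPM) and Igfbp6 (1373 and 1253 CPM) of the same list were present. The synovial lining gene Prg4 (lubricin) was at 3502 and 3209 CPM, below other Pdgfra positive cells (16365 and 11837 CPM) and above neutrophil-rich barcodes (1245 and 2000 CPM), and the lining genes Clic5 and Col22a1 were at 6.54 and 0.590 and at 3.60 and 1.18 CPM. The 8 periosteal genes summed to 628 and 881 CPM, against 777 and 811 CPM in other Pdgfra positive cells, with Ctsk at 328 and 591 CPM, Aspn at 180 and 117 CPM and Postn (periostin) at 22.9 and 78.4 CPM. Endothelial genes summed to 3.60 and 3.54 CPM (5 genes), muscle genes to 2.62 and 1.18 CPM (8 genes), Schwann cell genes to 37.6 and 33.6 CPM (7 genes) and mural genes to 24.9 and 97.3 CPM (6 genes). Of the chondrocyte genes not used by the rule, Col2a1 stood at 136 and 161 CPM against 3302 and 4674 in chondrocyte-like cells, and Chad (chondroadherin) at 2159 and 1007 against 9313 and 6449. Chad was found in 73.5% and 68.1% of Ctrl members. The 9 general fibroblast genes summed to 26952 and 27928 CPM in members, 24877 and 21734 CPM in other Pdgfra positive cells and 32189 and 31960 CPM in chondrocyte-like cells, mostly through Dcn, so their sum does not set the members apart from cartilage. Scx, Pi16 and Clic5 were low, periosteal and tendon genes were present in part, and the cells are called here by their 3 leading genes.

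Leukocyte transcripts outside the rule were checked too; S100a8 and S100a9 were capped by the rule and are no check. The 8 macrophage and pan-haematopoietic genes summed to 353, 229, 398 and 1961 CPM in library order, with Lyz2 the most abundant except in HLU replicate 1, and Cd74 was at 0 in HLU replicate 2. Ptprc, which encodes the leukocyte antigen CD45, was found in 30 of 472, 27 of 163, 1 of 2 and 1 of 12 members. In HLU replicate 2, 160 of the 168 Lyz2 UMIs came from 1 cell, the doublet described with the HLU members.

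Matrix genes were led by decorin. The 13 small leucine-rich proteoglycan genes summed to 30024, 27631, 26024 and 10035 CPM in library order, and to 43558 and 40412 CPM in chondrocyte-like cells of the Ctrl libraries. Bgn (biglycan) stood at 1970 and 2078 CPM and Prelp at 370 and 418 CPM in the Ctrl libraries. Fibrillar and basement membrane collagens summed to 4037 and 7096 CPM, with Col1a2 the most abundant, and were higher in Ctrl replicate 2 for Col1a1, Col1a2 and Col3a1 (518 and 1453 CPM). Tendon and fascia collagen genes Col12a1 (454 and 226 CPM) and Col14a1 (55.3 and 58.4 CPM) exceeded other Pdgfra positive cells (127 and 134, and 27.1 and 29.9 CPM).

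Matricellular and elastic fibre genes gave a partial picture. Sparc (osteonectin) stood at 3561 and 5201 CPM, Spp1 (osteopontin) at 5903 and 11418 CPM and Ctgf at 2220 and 1772 CPM in Ctrl members. Thbs1 reached 567 and 239 CPM but stood higher in neutrophil-rich barcodes (2234 and 3222 CPM), whereas Thbs2 stood at 269 and 160 CPM against 8.63 and 6.22 CPM there. Of the elastic fibre genes, elastin itself (Eln) was near 0, at 0.654 and 0.590 CPM, while the fibulin genes Fbln1 (169 and 83.7 CPM) and Fbln2 (72.9 and 89.6 CPM) and the cross-linking enzyme gene Lox (557 and 680 CPM) were present.

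Secreted regulators were also found. Insulin-like growth factor binding proteins were led by Igfbp7 (1697 and 2314 CPM in the Ctrl libraries), Igfbp6 and Igfbp5 (539 and 805 CPM), and Igf1 stood at 45.5 and 46.0 CPM against 6.25 and 11.5 CPM in other Pdgfra positive cells. Among Wnt antagonists, Sfrp4 stood at 90.2 and 516 CPM, Wif1 at 126 and 108 CPM and Sfrp2 at 60.5 and 29.5 CPM, while Dkk1 and Sost were at 0.327 and 0, and at 0 and 0 CPM. The mechanosensitive channel gene Piezo1 stood at 55.9 and 64.3 CPM, close to other Pdgfra positive cells (62.1 and 62.6 CPM), and Piezo2 at 6.54 and 1.18 CPM. Apoe (327 and 294 CPM) and Clu (3979 and 3091 CPM), both lipid carrier genes, accompanied Apod.

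The cells led by Myoc, Apod and Thbs4 were compared in other genes too. The classes come from the same counts, so the values are descriptive, and the genes were chosen after their values were seen, as those of at least 100 CPM in the class with the highest ratio to both other classes in both Ctrl libraries. In Apod-led cells 14 of 1113 such genes were at least 2-fold above both other classes in both libraries, in Thbs4-led cells 3 of 1122 and in Myoc-led cells 1 of 1009. Serping1 stood at 1123 and 1178 CPM in Apod-led cells of Ctrl replicate 1 and Ctrl replicate 2, 271 and 250 in Myoc-led cells and 312 and 317 in Thbs4-led cells. Fgf7 stood at 265 and 335, 31.6 and 16, and 73.1 and 51.5 CPM in the same order. C4b (complement C4, 450 and 289 CPM) and Cxcl12 (888 and 458 CPM) were also highest in Apod-led cells. Apod-led cells held 723 of 1439 and 517 of 903 Serping1 UMIs and 572 of 1170 and 201 of 336 Cxcl12 UMIs of all members. Mmp12 (515 and 378 CPM) rested on single cells, since 1 cell held 81.7% and 67.0% of its member UMIs, and 1 cell of Ctrl replicate 2 held 38.0% of Ptx3.

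Thbs4-led cells had more Fn1 (fibronectin, 2993 and 4826 CPM, against 1525 and 1028 in Myoc-led and 947 and 982 in Apod-led cells). The acute-phase gene Saa3 was at 3150 and 1629 CPM in Thbs4-led cells, 606 and 165 CPM in Myoc-led and 486 and 6.83 CPM in Apod-led cells, but was found in only 51 and 17 members. Cartilage Col2a1 was at 203 and 207 CPM in Thbs4-led cells, 90.3 and 53.2 in Myoc-led and 48.1 and 93.4 in Apod-led cells. Myoc-led cells had more Nrn1 (neuritin, 135 and 112 CPM, against 62.1 and 38.7 and 34.8 and 37.5), Rcan1 (a calcineurin regulator, 428 and 325 CPM) and Hes1 (a Notch target, 281 and 314 CPM). Tendon Kera (keratocan) was at 60.1 and 6.56 CPM in Thbs4-led cells and 12.4 and 5.32 CPM in Myoc-led cells, so the Ctrl libraries differed more than the classes.

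**Figure D4:**
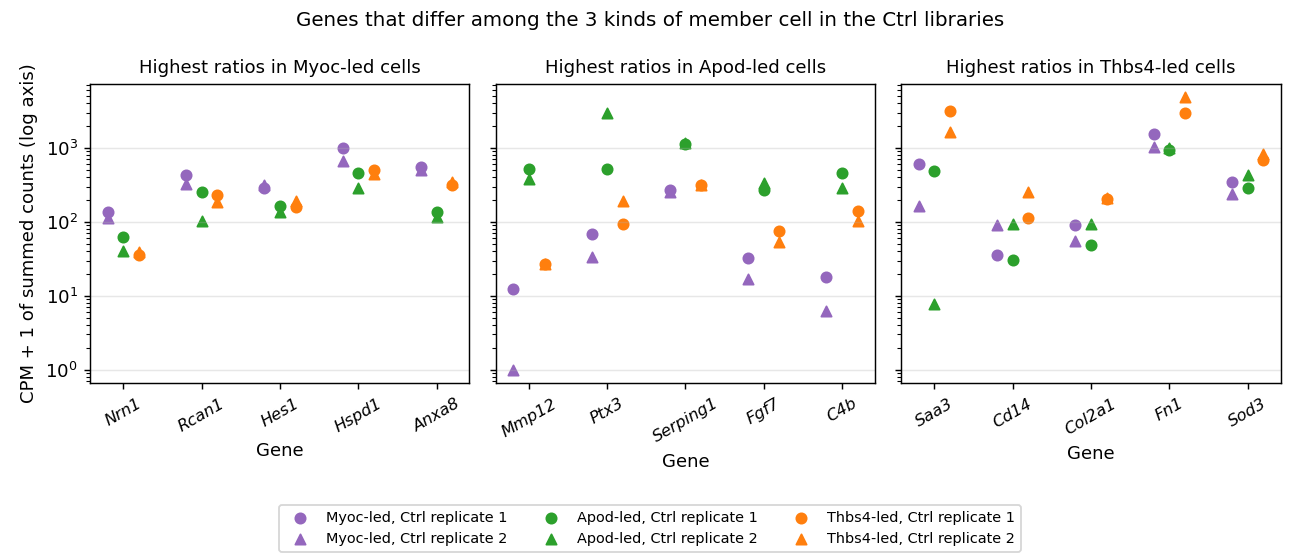
Levels (CPM + 1, log axis) of the 5 genes with the highest ratio in each class of member cells of the Ctrl libraries; colours are classes, and circles and triangles are Ctrl replicate 1 and Ctrl replicate 2. Serping1 stands at 1123 and 1178 CPM in Apod-led cells and between 250 and 317 CPM in the other classes; Mmp12 rests mostly on 1 cell in each library.

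The 14 HLU members were looked at cell by cell. Both cells of HLU replicate 1 had Apod (103 and 130 UMIs) with no Myoc and no Thbs4, high Ctgf (441 and 540 UMIs) and Dcn (487 and 374 UMIs), and the cartilage Wnt antagonist Wif1 (16 and 32 UMIs). Their summed Ctgf, 24407 CPM, was above every Ctrl population described here, of which chondrocyte-like cells were the highest (9220 and 7161 CPM). In HLU replicate 2, 11 of 12 cells had at least 1 Dcn UMI and 9 had Pdgfra, but the amounts differed widely. Cell 4, not scored as a doublet, held 65 Thbs4 UMIs but only 13 Dcn and 0 Pdgfra UMIs among 29164. Cell 9 held 425 Dcn UMIs among 36735. Cell 3 was the only HLU member with all 3 genes (23 Myoc, 20 Apod and 10 Thbs4 UMIs). Cell 9 held 518 of the 531 Il1rl1 UMIs (97.6%) and 490 of the 673 Ccl2 UMIs (72.8%), so these levels, 3371 and 4272 CPM, rest largely on 1 cell.

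Cell 7 of HLU replicate 2 combined 103 Thbs4 UMIs with 57 Ly6c2, 136 Chil3, 64 Cybb, 160 Lyz2, 31 Top2a and 23 Ptprc UMIs, and had only 7 Dcn UMIs among 36502. These are genes of monocytes and, for Top2a, of dividing cells, and Scrublet scored this barcode as a doublet. Cell 2, the other doublet, had 54 Apod UMIs and no Dcn or Pdgfra UMI among 2663.

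**Figure D5:**
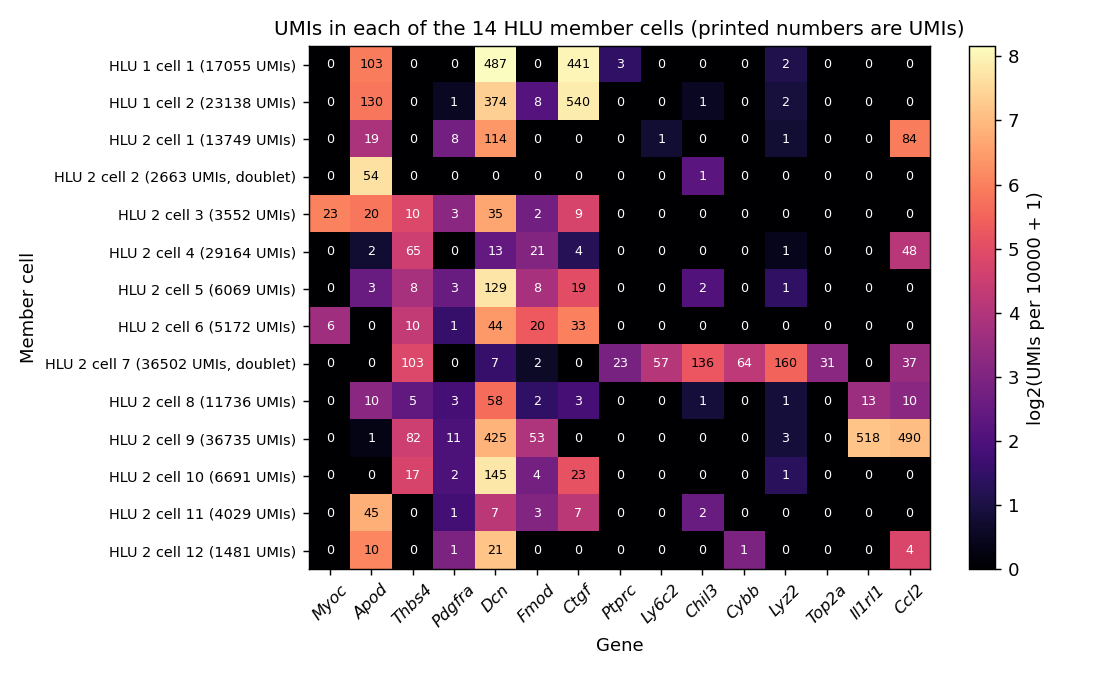
UMIs of 15 genes in each of the 14 HLU members (rows, with total UMIs and doublet calls); colour is log2(UMIs per 10000 + 1) and printed numbers are UMIs. Cell 7 of HLU replicate 2 holds nearly all UMIs of Ly6c2, Chil3, Cybb and Top2a, and cell 9 nearly all of Il1rl1.

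HLU and Ctrl members were compared by edgeR's quasi-likelihood test on summed counts. HLU replicate 1, with 2 cells, was left out, so 1 HLU library stood against 2 Ctrl libraries and the lone library was assumed to vary like the Ctrl libraries. Of 9902 genes tested, none passed an adjusted p of 0.05 in either direction (0% and 0% called), 1802 had an unadjusted p under 0.05, and the smallest adjusted p was 0.0870. DESeq2 on the same sums called 213 genes, 42 higher and 171 lower in HLU, and edgeR with DESeq2's size factors called 93 higher and 136 lower. On the TMM-scaled CPM of the fit, HLU replicate 2 lay above both Ctrl libraries for 3735 genes (37.7%) and below both for 4903 (49.5%). TMM scaling shifted HLU replicate 2 against Ctrl by -0.47 on the log2 scale. On the unscaled CPM printed here it lay above both for 5422 genes (54.8%) and below both for 2520 (25.4%), where a gene without a UMI counted as lower only if 3 counts lay under both Ctrl values. For HLU replicate 1 these shares were 46.7% above and 13% below, and 3526 genes could not be placed at its depth. Such a position was therefore common, depended on the scaling and is no result on its own.

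The 5 genes with the smallest p on the higher side, none of which passed, were Cybb, Chil3, Ly6c2, Pla2g7 and Top2a. Ly6c2, a surface protein gene of inflammatory monocytes, had 3.60 and 1.77 CPM in Ctrl members and 368 CPM in the second HLU library (log2 fold change of 6.46 with an SE of 0.38, adjusted p = 0.0870 by edgeR). Cell 7 held 98.3% of its UMIs there, 98.5% of those of Cybb, 95.8% of Chil3, 95.7% of Pla2g7 and all 31 of Top2a. With doublets removed the log2 difference of Cybb turned from 4.39 to -0.67, and those of Chil3 and Pla2g7 came to 0.45 and 0.83. The HLU levels of these 5 genes therefore came almost wholly from 1 barcode. Their calls depended on the setting too. They passed with DESeq2, with its size factors, without a filter on low counts and under the S100a8 plus S100a9 limit of 1%.

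On the lower side the smallest p belonged to Tnfrsf11b, Ackr3, Cdo1, Gas1 and Bnip3, and none passed. Tnfrsf11b encodes osteoprotegerin, the decoy receptor that restrains osteoclast formation. It stood at 427 and 476 CPM in the Ctrl libraries, found in 174 of 472 and 72 of 163 members, and at 1 UMI (6.35 CPM) in the second HLU library (log2 fold change of -6.60 with an SE of 0.50, adjusted p = 0.0870 by edgeR). The left-out HLU replicate 1 went the other way, with 54 UMIs (1344 CPM), all in 1 of its 2 cells, so the HLU libraries did not share a direction. Ackr3, a scavenging receptor for Cxcl12, stood at 371 and 442 CPM in Ctrl and at 2 UMIs (12.7 CPM) and 0 UMIs in the HLU libraries. Gas1, a hedgehog co-receptor gene, stood at 616 and 663 CPM in Ctrl and at 50.8 CPM and 0 in HLU, and Cdo1, a cysteine-degrading enzyme gene, at 296 and 363 CPM against 1 UMI and 0. Bnip3, a mitophagy gene induced by hypoxia, stood at 480, 577, 99.5 and 38.1 CPM in library order. Both HLU libraries lay below both Ctrl libraries for these 4 genes, although 74.6 CPM was the limit of HLU replicate 1. These calls depended on the setting. With doublets removed all 5 genes passed (edgeR adjusted p = 0.0231 for each), and all 5 also passed with DESeq2, with its size factors, without a filter on low counts and under the S100a8 plus S100a9 limit of 1%. With HLU replicate 1 kept, none of the 5 passed, and with the replicate number as a block in that fit all but Tnfrsf11b did.

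Low HLU levels of these genes were also found outside the population, though not in every population of HLU replicate 1. The HLU sums rest on few cells. In HLU replicate 1 and HLU replicate 2 there were 14 and 18 other Pdgfra positive cells and 23 and 79 chondrocyte-like cells. Osteoblast-like cells numbered only 8 and 3, so their directions are uncertain. Gas1 stood at 1011, 893, 353 and 58.8 CPM in other Pdgfra positive cells and at 812, 712, 18.2 and 6.89 CPM in chondrocyte-like cells, in library order. In other Pdgfra positive cells Ackr3 stood at 323, 508, 151 and 44.1 CPM and Cdo1 at 400, 395, 282 and 18.4 CPM. These 3 genes were thus lower in both HLU libraries in these cells as well. Tnfrsf11b stood at 269, 304, 5.04 and 14.7 CPM in other Pdgfra positive cells, also lower in both HLU libraries. In chondrocyte-like cells it stood at 1383, 1043, 391 and 944 CPM, again lower in both. In osteoblast-like cells Ackr3 stood at 148, 139, 233 and 71.3 CPM, so HLU replicate 1 lay above both Ctrl libraries. Bnip3 stood at 383, 582, 348 and 16 CPM in neutrophil-rich barcodes, in library order. In chondrocyte-like cells it was also lower in both HLU libraries (421, 635, 164 and 101 CPM). In other Pdgfra positive cells it stood at 209, 584, 242 and 51.4 CPM, so HLU replicate 1 lay between the Ctrl libraries. The same held in osteoblast-like cells (251, 605, 328 and 35.7 CPM). Of the hypoxia-inducible factor targets, 13 of 13 tested lay below both Ctrl libraries in HLU replicate 2 on either scale. Of all genes, 25.4% did on the unscaled scale and 49.5% on the TMM-scaled one. In HLU replicate 1, 10 of 13 targets lay below on unscaled CPM (13% of all genes). The unscaled shares were not matched for level, and genes of low level could hardly lie below at these depths. The median log2 fold change of the targets in the fit was -2.91, against -0.17 over all genes tested. No gene of this list passed the test. Their 14 genes summed to 7359, 10076, 3483 and 2628 CPM in members, and to 9387, 11263, 8686 and 1873 CPM in neutrophil-rich barcodes. The low sum in HLU replicate 2 was therefore shared by its blood cells. Within Ctrl, 12 of the 14 were higher in Ctrl replicate 2 in members, opposite to the heat shock genes. This was not particular to members. In other Pdgfra positive, chondrocyte-like and osteoblast-like cells and neutrophil-rich barcodes, 0 of 14 were higher in Ctrl replicate 1.

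Other lists are described by position on unscaled CPM, without the genes of the rule, since 0 genes of any list passed. Of all genes, 25.4% lay below both Ctrl libraries in HLU replicate 2 and 13% in HLU replicate 1. Genes of low level could hardly lie below at these depths, and 904 and 3526 genes could not be placed. These shares were not matched for level and are no fair comparison for lists of abundant genes. Immediate early genes, which respond to stimulation and to tissue digestion, lay below both Ctrl libraries for 14 of 16 in HLU replicate 2 and 9 of 16 in HLU replicate 1, where 5 lay above. Jund stood at 718, 603, 697 and 31.7 CPM in library order and Jun at 663, 534, 323 and 603 CPM, so that the HLU libraries did not share a direction for Jund. The list summed to 3478, 4594, 2999 and 1646 CPM in neutrophil-rich barcodes. Collagen maturation enzymes lay below for 11 of 15 and above for 3 in HLU replicate 2, and below for 7 and above for 6 in HLU replicate 1. Their sum was 2979, 3397, 3632 and 1327 CPM in library order. Serpinh1, a collagen chaperone gene, stood at 606, 492, 945 and 121 CPM.

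General fibroblast genes lay below for 6 of 9 in HLU replicate 2 and 7 of 9 in HLU replicate 1, and none lay above. Dcn stood at 23250, 21139, 21422 and 6335 CPM and Lum at 885, 1520, 224 and 1250 CPM in library order. The low Dcn level of HLU replicate 2 depended on which cells were summed. Cells 4 and 7 there held 29164 and 36502 of the 157543 member UMIs but only 13 and 7 of the 998 Dcn UMIs. On the TMM-scaled values all 9 general fibroblast genes lay below in HLU replicate 2, against 49.5% of all genes on that scale. The count thus turned on the scaling for 3 genes. Matricellular genes lay below for 10 of 15 in HLU replicate 2 and collagens for 9 of 17, with 2 and 4 above.

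Insulin-like growth factor genes lay below for 5 of 8 in HLU replicate 2, and 2 could not be placed at this depth. Igfbp5 stood at 539, 805, 0 and 19.0 CPM in library order. Igf1 had no UMI in either HLU library and was at least 2.40-fold lower in HLU replicate 2 than the Ctrl mean, counting 3 UMIs of that library as its floor. Sfrp4 was at least 15.9-fold lower on the same terms, a mean that rests on the 516 CPM of Ctrl replicate 2. The macrophage and pan-haematopoietic genes lay above for 6 of 8 in HLU replicate 2, against 54.8% of all genes, and 160 of the 168 Lyz2 UMIs there were from cell 7.

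Among the markers outside the rule, Hspb1 and Serpinf1 lay below both Ctrl libraries in both HLU libraries, and Ogn lay between them in HLU replicate 2. Serpinf1 had a log2 fold change of -2.37 (edgeR adjusted p = 0.157) and Hspb1 of -5.09 (edgeR adjusted p = 0.155), and neither passed. Outside the members Hspb1 stood at 2607, 778, 126 and 95.5 CPM in other Pdgfra positive cells and at 3305, 1244, 2356 and 192 CPM in chondrocyte-like cells, in library order.

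In the remaining lists the HLU libraries often differed. Elastic fibre genes lay below for 8 of 16 in HLU replicate 2 but summed to 1278, 1375, 2612 and 984 CPM in library order. Complement and lipid carrier genes lay below for 7 of 9 in HLU replicate 2 and 6 of 9 in HLU replicate 1, while the sum with Apod was 6699, 5197, 7215 and 3440 CPM. Mechanosensing genes lay below for 6 of 13 and above for 5 in HLU replicate 2, and above for 11 of 13 in HLU replicate 1 (46.7% of all genes), where the sum was 29110 CPM, of it 24407 CPM Ctgf, against 3474 and 3013 CPM in Ctrl. Piezo1 stood at 55.9, 64.3, 74.6 and 152 CPM.

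Small leucine-rich proteoglycans lay below for 5 of 12 and tendon genes for 4 of 10 in HLU replicate 2. On the TMM-scaled values, with no floor for genes without a UMI, these counts were 8 of 12 and 8 of 10. That of insulin-like growth factor genes was 8 of 8. Of all genes, 49.5% lay below on that scale. Small heat shock proteins lay below for 4 of 6 and chaperones for 6 of 10 in HLU replicate 2. In library order their sums were 10505, 5379, 323 and 336 CPM and 22560, 10912, 4105 and 7585 CPM in members, and in neutrophil-rich barcodes HLU replicate 2 was the lowest (783, 294, 17.6 and 12.9 CPM, and 6300, 2793, 2978 and 1949 CPM). Metallothioneins, which bind zinc and copper, summed to 7996, 11126, 1393 and 2787 CPM in members; 2 of 3 lay below and Mt3 could not be placed. Of cartilage and bone genes outside the rule, chondrocyte genes lay below for 5 of 5 in HLU replicate 2 and above for 4 of 5 in HLU replicate 1. Chad stood at 2159, 1007, 3309 and 400 CPM, Col2a1 at 136, 161, 398 and 0 CPM and Cnmd (chondromodulin) at 29.4, 26.5, 398 and 0 CPM. The summed 2 cells of HLU replicate 1 thus held more of these cartilage transcripts than Ctrl members. For Chad this rested on 1 cell, with 125 of the 133 UMIs, while the other cell held 8 among 17055. In HLU replicate 1 a single cell held 75% of the Cnmd UMIs and 50% of those of Col2a1. Spp1 stood at 5903, 11418, 3856 and 1606 CPM. Neutrophil-rich barcodes held 447, 292, 16.3 and 13.3 CPM of Chad and 1280, 1079, 568 and 115 CPM of Spp1, and the part of free RNA in these levels was not tested.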

How the data were processed

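Single-cell libraries of bone from 2 Ctrl and 2 HLU mice were used, 1 library per mouse. The authors processed the reads with Cell Ranger 6.0.0 on mm10 (the submitters' notes also name Seurat 4.1.0) and deposited raw UMI counts of 31053 genes per barcode, without normalization. Barcodes with 1000 to 40000 UMIs, at least 200 genes, at most 10% mitochondrial and at most 0.2% haemoglobin UMIs were kept. Doublets were scored with Scrublet (scanpy 1.11.5, 0.8% per 1000 barcodes) and kept in the main analysis. The summed member counts of the Ctrl libraries were not duplicates (chi-squared per gene 11.8). Counts were summed over members per library and compared with edgeR 4.0.16 (TMM factors, filterByExpr, quasi-likelihood test, Benjamini-Hochberg adjustment over all genes, threshold 0.05) under R 4.3.3; a library with under 10 members was left out, which applied to HLU replicate 1. Alternatives used DESeq2 1.42.0, other filters, thresholds, denominators and libraries. The test was tried on simulated data. Shares were compared by an exact permutation test over libraries with Python 3.11.15 and scipy 1.17.1. The p-values of the main edgeR fit rest on the spread between the 2 Ctrl libraries, moderated over all genes, and hold no spread between HLU mice. Those of the permutation test come from relabelling the 4 libraries.

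The members and the 29 gene lists (265 genes) were chosen with earlier results of these data known. The genes named are the 6 markers, the 25 highest ratios of members to other kept cells (mean Ctrl CPM, prior of 1 CPM), the 5 smallest p in each direction because none passed, and examples from the lists; the genes of the 3 classes and of single HLU cells were chosen after their values were seen. Comparison cells were neutrophil-rich barcodes (S100a8 plus S100a9 of at least 3%), osteoblast-like and chondrocyte-like cells (at least 3 UMIs and 0.1% of the rule's osteoblast or cartilage genes) and other Pdgfra positive cells (at least 2 UMIs). Gene positions are from GENCODE M21. One of the 25 leading genes is not reported here by name. No wider cluster analysis was made, and proteins were not analysed here.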

Additional observations from a re-analysis of the deposited data

How the results depend on the processing

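The difference in share of kept barcodes between HLU and Ctrl was negative under all 8 other thresholds, denominators and filters and ranged from -6.49 to -2.51 percentage points, and from -6.38 to -2.09 points with a library left out; Ctrl replicate 1 decided its size, since without it the difference was -2.09 points. The exact permutation p was 0.33 under each of the 8, except 0.667 for skeletal and connective barcodes. The count of genes called between HLU and Ctrl members depended on the processing. The number of genes tested differed as well, so the counts do not share a base. It was 9902 in the main fit, 2636 with a minimum of 10 counts per library and 15787 without a filter. With doublets removed it was 9611, under the S100a8 plus S100a9 limit of 1% it was 9843, and with HLU replicate 1 kept it was 7614. Against 0 in the edgeR test, DESeq2 called 213, DESeq2 size factors within edgeR 229 (93 higher and 136 lower), a minimum of 10 counts per library 326, all genes without a filter 1061, doublets removed 69 and an S100a8 plus S100a9 limit of 1% 523. It stayed at 0 with neutrophil, macrophage and haemoglobin genes left out and, as an alternative chosen after seeing the data, with HLU replicate 1 kept in spite of its 2 cells. The cause of these shifts was not tested; with 1 HLU library the spread rests on the 2 Ctrl libraries alone. In the main comparison no paired analysis was possible because only 1 HLU library entered it. With HLU replicate 1 kept and the replicate number as a block, also chosen after seeing the data, 115 genes were called (27 higher and 88 lower); the numbers are not known to mark shared litters or days. Of the 10 genes named, Cybb reversed, from 4.39 to -0.67 on the log2 scale with doublets removed, and no other of them changed sign under the alternatives that gave a value. The stricter marker threshold left 9 cells in HLU replicate 2, so that fit was not run, and with a Ctrl library left out no test was possible for lack of residual degrees of freedom. Depth limited HLU most: 1 UMI was worth 6.35 and 24.9 CPM there, so a gene without a UMI may still lie below 19.0 and 74.6 CPM.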
